A study of Mus musculus with 48 samples.

Results

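The kidneys described here are the remnant kidneys of FVB mice 28 days after subtotal nephrectomy (Nx), an operation that removes most of the renal mass, and the kidneys of FVB mice 28 days after a sham operation. They were chosen by their labels for strain, surgery and day, and they make up 8 of the 48 arrays of the series, 4 Nx (mice 2, 3, 7 and 8) and 4 sham (mice 1, 2, 3 and 4). The series compared FVB mice, which are prone to renal lesions after this operation, with C57BL/6 mice (B6), which are not, at 2, 28 and 53 days. Every animal was 9 weeks old when operated on, no group carried another allele or agent, and each array held RNA from the whole kidney of 1 mouse. The question at day 28 is what the remnant of the lesion-prone strain expresses between the acute phase and the late phase.

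After loss of nephrons, the remaining ones take over filtration and transport and grow, and tubule cells that have been damaged can lose their transport functions, divide and release signals that draw monocytes from the blood. Monocytes become macrophages that clear debris, and fibroblasts and pericytes around the tubules lay down collagen. When this repair does not end, the matrix accumulates as fibrosis and nephrons are lost further. Damaged tubules are recognised by Havcr1 (KIM-1) and Lcn2 (NGAL), macrophages by Adgre1 and Cd68, and active fibroblasts by Acta2 and the fibrillar collagens.

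Values are deposited log2 probe set values, 1 probe set per gene, and a difference is Nx minus sham on that scale unless another is named. Each was tested with limma over 13174 genes, with the Benjamini-Hochberg adjusted p at a threshold of 0.05. Of these genes 2129 (16.2%) passed, 968 (7.35%) higher and 1161 (8.81%) lower in Nx kidneys. With each array shifted to 1 common median, 865 were higher and 1694 lower. Of all genes, 9.2% were higher and 12% lower with no overlap of the groups. The median difference of all genes was -0.02. Differences over 2 were mostly rises, with 122 genes higher and 13 lower, and differences over 1 were found in 408 higher and 116 lower genes. In whole-kidney RNA, fewer cells of a type and less RNA per cell cannot be told apart. The same holds for more cells and more RNA per cell.

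Some arrays held RNA of neighbouring tissues. The mean of 15 pancreatic enzyme genes was 3.80, 14.34, 13.82 and 13.27 in Nx mice 2, 3, 7 and 8, against 5.75, 3.86, 3.87 and 11.19 in sham mice 1 to 4. Summed on the linear scale, these genes ranged from 27772 to 350399 in Nx and from 29055 to 67320 in sham kidneys. Nx mice 3, 7 and 8 and sham mouse 4 were therefore high in pancreas transcripts, and none of the 15 genes passed. Leaving out every array with a pancreas mean over 5 left 1 Nx kidney (mouse 2) and 2 sham kidneys (mice 2 and 3), with 751 genes passing, 487 of them among the 2129. With 1 Nx kidney left, a call can end while the difference stays, so list medians of that fit are given beside its counts. Of 83 genes named here that lost their call in it, 50 kept a difference within 1.5 times of the one given, 32 had a smaller one and 1 a larger one. With the pancreas mean as a covariate over all arrays, 1018 genes were higher and 1144 lower. The mean of 8 liver genes was 4.87 to 5.51 in Nx kidneys, against 4.58 to 4.73 in sham mice 1 to 3 and 10.06 in sham mouse 4, whose albumin (Alb) value was 13.05. The mean of 8 skeletal muscle genes was 6.32 in Nx mouse 3, against 3.35 to 3.56 in the other Nx mice and 4.00 to 4.08 in sham mice. The mean of 8 fat genes was 5.88 to 7.65 in Nx and 4.76 to 6.21 in sham kidneys. Summed on the linear scale, the fat genes ranged from 10291 to 13154 in Nx and from 5411 to 6742 in sham kidneys, so the sums did not overlap. None of the 8 passed (median 0.83), and 4, among them Adipoq and Fabp4, were higher in every Nx than in every sham kidney. The part of fat tissue in the results was not tested. The kidney label was borne out by its markers: Umod was 15.1 to 15.4 in Nx and 15.2 to 15.3 in sham kidneys, and Slc34a1 averaged 12.94 ± 0.18 in Nx and 13.06 ± 0.06 (SD, n = 4 each) in sham kidneys. RNA integrity, read as the 3 prime end less the 5 prime end of a transcript, was 0.269 to 0.332 in Nx and 0.182 to 0.286 in sham kidneys for Gapdh, and 2.196 to 2.464 in Nx and 2.294 to 2.479 in sham kidneys for Actb.

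**Figure D1:**
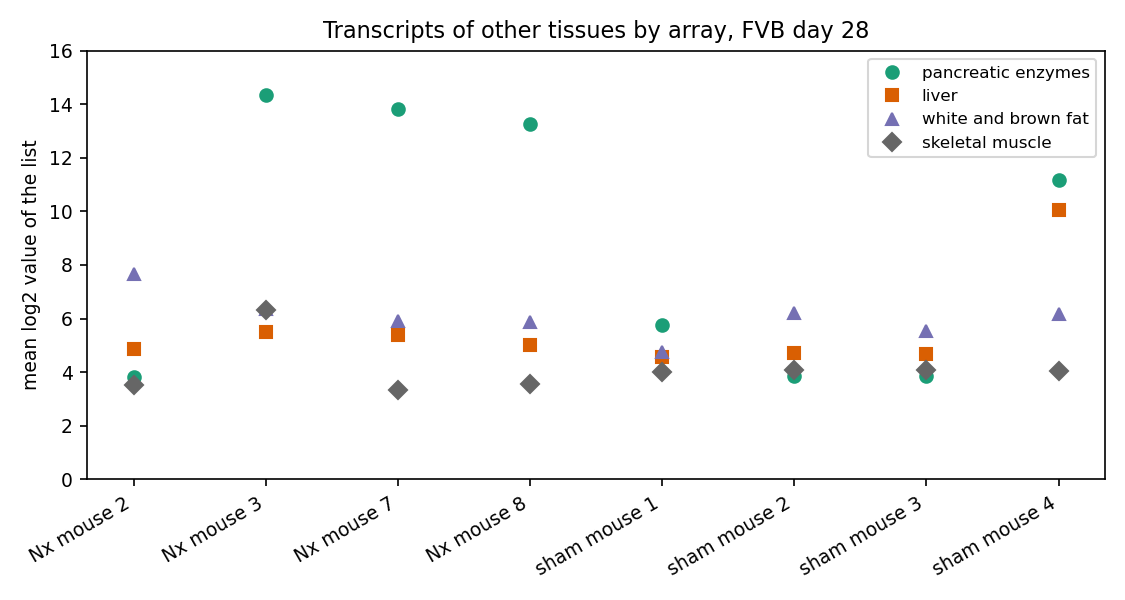
Mean log2 value (vertical axis) of 4 lists of genes made by other tissues, 1 point per list and array, for the 4 Nx arrays (left) and the 4 sham arrays (right) of FVB day 28. Pancreas genes lie above 11 on Nx mice 3, 7 and 8 and sham mouse 4, and liver genes at 10.06 on sham mouse 4.

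The 4 largest rises that passed without overlap of the groups were those of Mmp12, Gpnmb, Ccl8 and Col1a1. Mmp12, the elastase that macrophages secrete, had values of 8.84, 10.58, 11.02 and 8.13 in Nx mice 2, 3, 7 and 8, against 2.20, 2.20, 3.06 and 3.25 in sham mice 1 to 4. Every Nx kidney lay more than 4 units above every sham kidney. The difference was 6.97 (SE 0.58, adjusted p = 9.65e-11). Sham mice 1 and 2 lay at the lowest value of the table, so this is a lower limit. Gpnmb, a membrane glycoprotein of phagocytes rich in lysosomes, had 8.44, 10.10, 10.38 and 7.02 in Nx kidneys and 2.95 to 3.18 in sham kidneys. The sham values were nearly the same, while the Nx kidneys spread over more than 3 units. Ccl8, a chemokine that draws monocytes, had 7.53, 9.28, 8.65 and 7.65 in Nx mice, against 2.99, 3.64, 2.61 and 4.81 in sham mice. Col1a1, one of the chains of type I collagen, had 8.72, 9.85, 9.66 and 8.17 in Nx mice, against 3.86, 4.50, 4.44 and 5.35 in sham mice. Neither gene overlapped between the groups.

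The other 11 of the 15 largest rises ran from 4.54 for the acute phase gene Saa3 to 3.89 for the collagen chain Col5a2. Saa3 differed most among the remnants, with 9.79, 6.04, 8.87 and 8.11 in Nx mice, against 3.41 to 4.18 in sham mice. Macrophage genes among them were Cd68, a lysosomal protein (4.10, SE 0.49), F13a1, the transglutaminase subunit of clotting factor XIII (4.17, SE 0.78), the chemokine Ccl9 (3.99, SE 0.67) and the membrane protein Ms4a6d (3.93, SE 0.58). Matrix genes were Serpinf1, which encodes pigment epithelium-derived factor (4.24, SE 0.65), Ltbp2 of the elastic microfibrils (4.06, SE 0.43), the matricellular gene Ccn3 (4.09, SE 0.59) and Itgbl1 (3.94, SE 0.49). The last of them was Lcn2, a marker of damaged tubules (3.96, SE 0.44). The remnants were not alike in size of change. Of the 15 genes, 7 were highest in Nx mouse 3 and 7 in Nx mouse 7, while 12 were lowest in Nx mouse 8. Nx mouse 2 had the highest value of 1 gene, Saa3. Among sham kidneys, mouse 4 was the highest for 13 of the 15. Nx mice 3 and 7 (14.34 and 13.82) and sham mouse 4 (11.19) also had the highest pancreas means of their groups. The part of other tissues in this ranking was not tested.

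**Figure D2:**
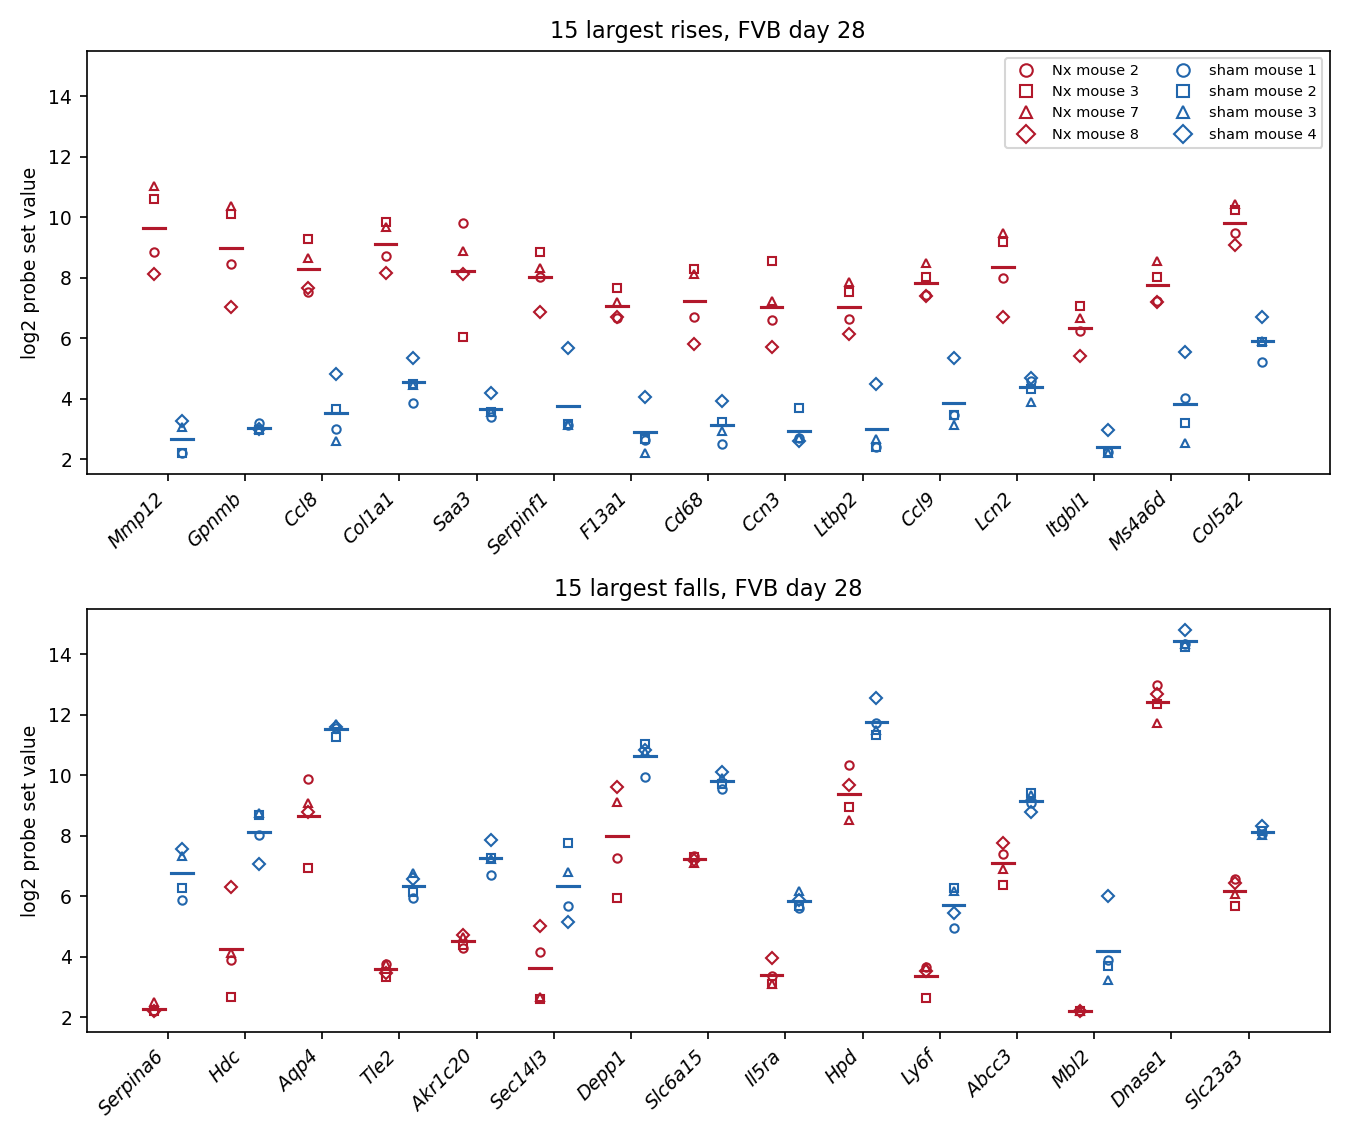
Log2 probe set values (vertical axis) of the 15 genes with the largest rises (upper panel) and the 15 with the largest falls (lower panel) that passed with no overlap of the groups, Nx left of sham for each gene, 1 symbol per mouse and a line at the group mean. Rises start from values near 2 to 6 in sham kidneys, and Nx mice 3 and 7 hold most of the highest values.

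The largest falls were of a mixed kind. Serpina6, corticosteroid-binding globulin, had 2.20, 2.20, 2.50 and 2.20 in Nx mice, against 5.86, 6.28, 7.33 and 7.55 in sham mice (-4.48, SE 0.36, adjusted p = 8.49e-11). The Nx kidneys lay at or near the lowest value of the table, 2.1979, so the fall is a lower limit of the true one in 3 of them. Hdc, the enzyme that forms histamine, had 3.88, 2.68, 4.13 and 6.29 in Nx mice, against 8.03, 8.69, 8.75 and 7.08 in sham mice. Nx mouse 8 had fallen least, to within 1 unit of the lowest sham kidney. The water channel Aqp4 of the collecting duct had 9.89, 6.93, 9.08 and 8.79 in Nx mice and 11.26 to 11.70 in sham mice (-2.86, SE 0.65, adjusted p = 0.00147), and its difference was -1.59 without the arrays with pancreas transcripts (adjusted p = 0.0928). Slc6a15, a transporter of neutral amino acids, had little spread, with 7.11 to 7.32 in Nx and 9.55 to 10.12 in sham kidneys (-2.59, SE 0.29).

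Further falls were those of the corepressor gene Tle2 (-2.77, SE 0.31), the aldo-keto reductase Akr1c20 (-2.74, SE 0.33), the lipid-binding Sec14l3 (-2.73, SE 0.70) and Depp1, a target of FOXO factors (-2.66, SE 0.71). Hpd, which breaks down tyrosine, had 10.34, 8.95, 8.52 and 9.68 in Nx mice and 11.35 to 12.54 in sham mice. Dnase1, the secreted nuclease, had 12.97, 12.36, 11.71 and 12.69 in Nx mice, against 14.24 to 14.80 in sham mice (-1.99, SE 0.30). The receptor subunit Il5ra (-2.44, SE 0.22), Ly6f (-2.33, SE 0.51), the efflux pump Abcc3 (-2.06, SE 0.32) and the transporter Slc23a3 (-1.96, SE 0.22) completed the group with Mbl2, mannose-binding lectin. Mbl2 lay at the floor of 2.20 in all 4 Nx kidneys. Its sham values were 3.22 to 3.89 in mice 1 to 3 and 6.02 in mouse 4, the array with liver transcripts, without which the difference was -1.40 (adjusted p = 3.53e-09).

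Most collagens were higher. Of 19 collagen chains, 15 were higher, 1 lower and 3 not passed, and the list median was 1.31. Without the arrays with pancreas transcripts 10 were higher (median 0.81). Col3a1, type III collagen, had 13.18, 13.77, 13.80 and 12.93 in Nx mice, against 9.42, 9.31, 9.85 and 10.80 in sham mice (3.57, SE 0.33, adjusted p = 5.42e-10). Col1a2 had 12.32 to 13.30 in Nx and 9.90 to 10.81 in sham kidneys. The groups did not overlap for either chain, and Nx mice 3 and 7 were again the highest. The chain that fell, Col4a4 of the glomerular basement membrane (-0.39), was picked out after its values were seen. Of 11 genes that process and crosslink collagen, 4 were higher and 7 not passed (median 0.44): lysyl oxidase Lox (2.65, SE 0.44), Loxl1 (1.67, SE 0.21), the collagen chaperone Serpinh1 (1.28, SE 0.20) and the propeptidase enhancer Pcolce (0.62, SE 0.13). The prolyl hydroxylase subunit P4ha1 did not pass (0.31, SE 0.15).

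Of 20 glycoproteins and proteoglycans of the matrix, 15 were higher, none lower and 5 not passed (median 1.47), 9 of them higher without the arrays with pancreas transcripts (median 1.23). Postn (periostin), which active fibroblasts deposit, had 9.35, 9.86, 10.00 and 8.52 in Nx mice, against 4.88, 5.97, 6.26 and 6.63 in sham mice. Fn1 (fibronectin) rose by 1.95 (SE 0.31), Sparc by 1.62 (SE 0.20), Mgp by 1.31 (SE 0.17) and the microfibril gene Mfap5 by 3.34 (SE 0.45). Tenascin C (Tnc) rose by less (1.32, SE 0.41, adjusted p = 0.0217). For Sparc, 1 of 3 probe sets did not share the rise (-0.04). Of 15 matrix proteases and inhibitors, 7 were higher, 2 lower and 6 not passed. Timp1, the inhibitor of metalloproteinases, lay at the floor in sham kidneys and at 5.10, 6.42, 7.58 and 4.58 in Nx mice, at least 12.5-fold higher. Mmp2, gelatinase A, rose by 2.72 (SE 0.33), while Mmp7, a tubular metalloproteinase, was at 2.21 to 2.38 in Nx and 2.20 to 2.21 in sham kidneys and did not pass. Both plasminogen activators fell, Plau (-1.12, SE 0.16, adjusted p = 4.86e-06) and Plat (-0.82), the second picked out after its values were seen. Plau had -0.93 without the arrays with pancreas transcripts (adjusted p = 0.0724), and neither passed there.

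Fibroblast markers had a lower median than the collagens. Of 14, 8 were higher, none lower and 6 not passed (median 0.85), and 3 were higher without the arrays with pancreas transcripts (median 0.59). Acta2, smooth muscle actin of myofibroblasts, had 10.99 to 11.60 in Nx and 10.03 to 10.49 in sham kidneys (0.95, SE 0.17). Pdgfrb, the receptor of pericytes and fibroblasts, rose by 0.76 (SE 0.17), the actin-binding Tagln by 1.26 (SE 0.22) and vimentin (Vim) by 1.57 (SE 0.24). Pdgfra did not pass (0.29, SE 0.24). Of 15 genes of TGF-beta and of targets of TGF-beta and YAP, 4 were higher and 11 not passed (median 0.46): Ankrd1 (1.83, SE 0.43), Tgfbi (1.16, SE 0.24), the ligand Tgfb2 (0.74, SE 0.18) and the receptor Tgfbr2 (0.52, SE 0.13). Ccn2 (CTGF) was 12.08 to 12.28 in Nx and 11.89 to 12.04 in sham kidneys and did not pass (0.24, SE 0.17), and Tgfb1 lay at the floor on 7 of 8 arrays. None of the 4 passed without the arrays with pancreas transcripts, where Tgfbi had 1.19, Ankrd1 1.32, Tgfb2 0.48 and Tgfbr2 0.36 (adjusted p = 0.0703, 0.15, 0.426 and 0.35).

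**Figure D3:**
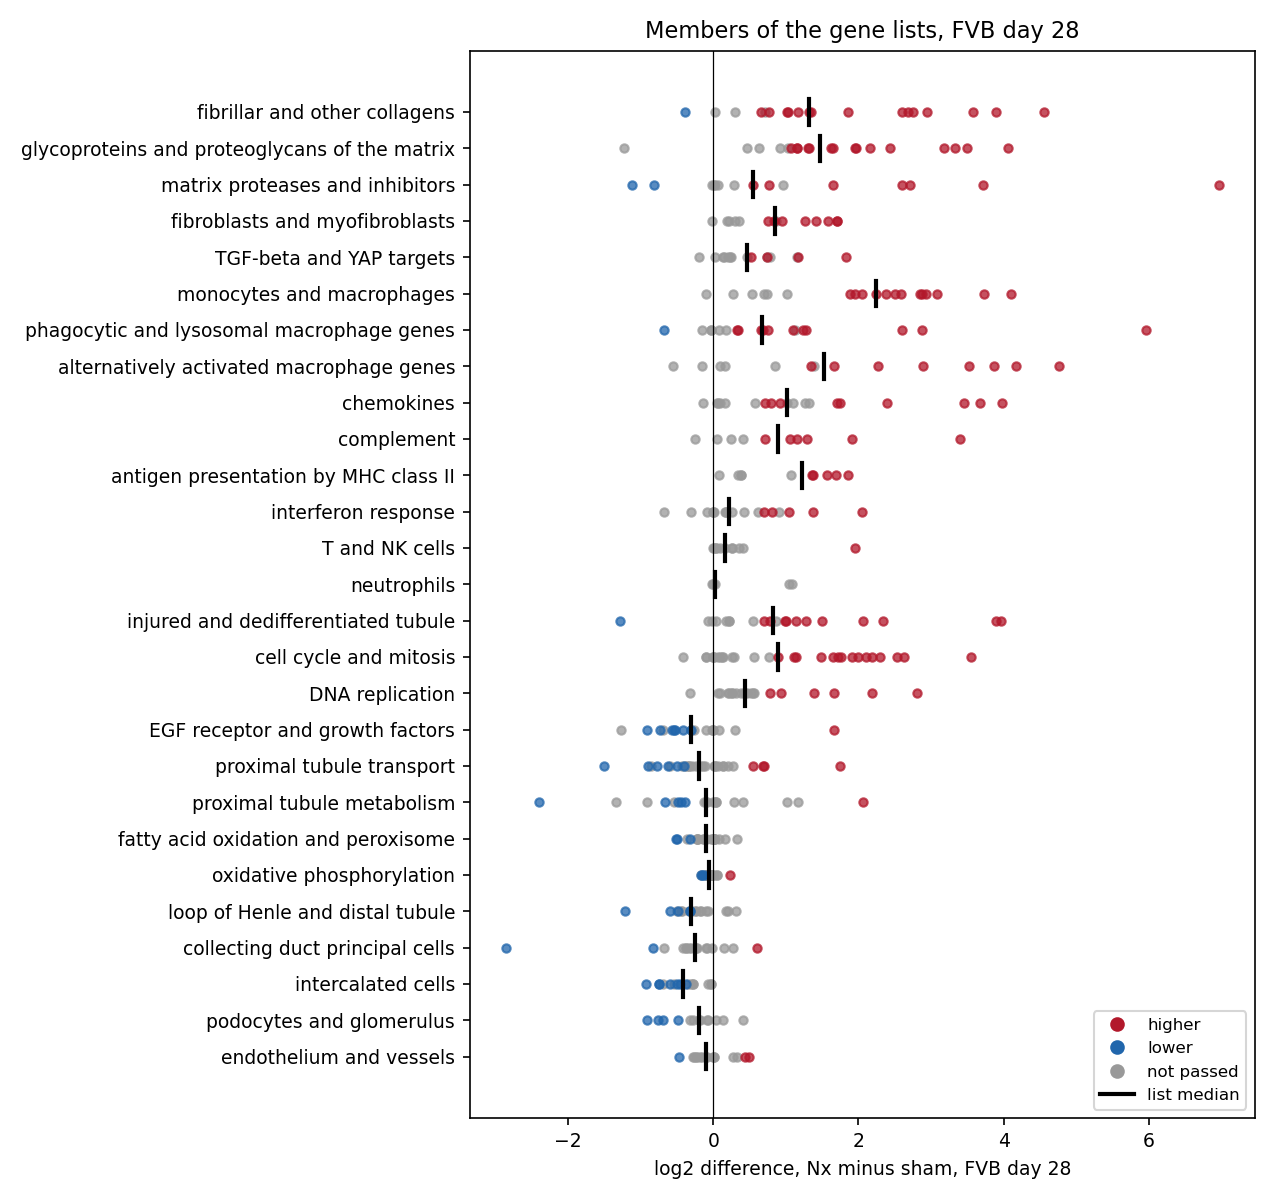
Log2 difference, Nx minus sham (horizontal axis), of each tested member of 27 gene lists (rows), coloured by whether it passed the limma test as higher, lower or not passed, with a bar at the list median. Matrix, macrophage and cell cycle lists extend to the right, where 15 of 19 collagens and 13 of 19 macrophage genes passed, and most tubule list medians lie between 0 and -0.42, with 22 of 26 oxidative phosphorylation genes not passed.

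Macrophage genes formed the list with the highest median, 2.24, apart from pancreatic enzymes: 13 of 19 were higher, none lower and 6 not passed. Lyz2 (lysozyme) had 12.55, 12.84, 13.10 and 11.69 in Nx mice, against 8.45, 8.53, 8.54 and 9.73 in sham mice. Adgre1 had 7.23, 7.65, 8.02 and 6.97 in Nx mice, against 4.14, 5.32, 4.86 and 5.53 in sham mice (2.51, SE 0.33). The list mean was 7.32, 7.98, 8.38 and 7.29 in Nx mice and 5.48 to 6.16 in sham mice. Nx mice 7 and 3 were higher than 2 and 8, and no Nx kidney reached down to a sham one. Without the arrays with pancreas transcripts 10 were higher (median 2.14). Csf1r, the receptor for the macrophage growth factor, was 10.56 to 10.84 in Nx and 10.63 to 11.04 in sham kidneys and did not pass (-0.10, SE 0.18). Of 18 genes of phagocytosis and lysosomes, 11 were higher, 1 lower and 6 not passed (median 0.68), and 5 were higher without the arrays with pancreas transcripts (median 0.25). The cathepsins Ctsk and Ctss rose by 2.88 (SE 0.44) and 2.61 (SE 0.29), and Hexa, a lysosomal hexosaminidase chain, by 1.10 (SE 0.18). Trem2, a lipid receptor of such cells, was at 4.44 and 4.46 in Nx mice 3 and 7 and at 2.21 in Nx mice 2 and 8, against 2.20 to 2.21 in sham mice, and did not pass. The gene that fell was lipoprotein lipase, Lpl (-0.68), picked out after its values were seen.

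Of 14 genes of alternatively activated macrophages, 8 were higher and 6 not passed (median 1.52), and 5 were higher without the arrays with pancreas transcripts (median 1.42). Mrc1 (mannose receptor CD206) rose by 2.27 (SE 0.35), the lectin Clec10a by 3.53 (SE 0.50) and Pf4 by 2.88 (SE 0.45). Retnla had 5.39, 7.75, 6.24 and 7.89 in Nx mice, against 2.60 to 3.97 in sham mice, an order of mice unlike that of the matrix genes. Arg1 and Chil3, which mark the same state in mouse macrophages in culture, did not pass: Arg1 was at 2.20 in all Nx kidneys and Chil3 at 2.20 to 2.51. Of 19 chemokines, 9 were higher and 10 not passed (median 1.02), and 2 were higher without the arrays with pancreas transcripts (median 0.68). Ccl12 (3.67, SE 0.55), Ccl6 (3.46, SE 0.59), Ccl2 (1.71, SE 0.49) and Cxcl10 (1.75, SE 0.34) rose, while the neutrophil chemokine Cxcl1 did not pass (1.26, SE 0.45, adjusted p = 0.052), although its Nx values (6.32 to 7.90) lay above its sham values (5.26 to 5.94). Of 18 cytokines of injury and their receptors, 7 were higher, 1 lower (Tgfa, -0.53, picked out after its values were seen and lost without Nx mouse 3 or 8 or sham mouse 2 or 3) and 10 not passed (median 0.44), and 2 were higher without the arrays with pancreas transcripts (median 0.36). Csf1, the macrophage growth factor, rose by 1.49 (SE 0.25), the alarmin Il33 by 1.14 (SE 0.28), the shared receptor chain Csf2rb by 2.84 (SE 0.46) and the TNF receptor Tnfrsf1b by 1.55 (SE 0.36). Il1b did not pass (0.31, SE 0.40), and Il6 lay at the floor on all 8 arrays.

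Humoral defence genes rose in part. Of 10 complement genes, 6 were higher and 4 not passed (median 0.89), and 3 were higher without the arrays with pancreas transcripts (median 0.78). C3ar1, the receptor for a complement fragment, had 6.11 to 7.53 in Nx and 2.89 to 4.34 in sham kidneys (3.40, SE 0.49), and the proteases of the first component, C1s1 and C1ra, rose by 1.29 (SE 0.25) and 1.05 (SE 0.22). Of 15 acute phase genes, 9 were higher and 6 not passed, and 5 were higher with only the 8 arrays in the fit or without the arrays with pancreas transcripts (median 0.93 in all and 0.67 in the second). Socs3, the feedback inhibitor of the STAT3 pathway, rose by 1.84 (SE 0.27) and ceruloplasmin (Cp) by 0.77 (SE 0.17), although 1 of the 8 probe sets of Cp did not share the rise. The liver gene Fgb was 4.33 to 6.99 in Nx and 4.40 to 9.12 in sham kidneys, the highest being sham mouse 4. Of 18 interferon-response genes, 5 were higher and 13 not passed (median 0.22), and 2 passed without Nx mouse 7, 3 without Nx mouse 2, 3 or 8 or sham mouse 2 or 3, and 1 without the arrays with pancreas transcripts (median 0.13). Oas1a (2.04, SE 0.30), Oasl2 (1.37, SE 0.40), Gbp2 (1.04, SE 0.37) and Ifih1 (0.70, SE 0.17) rose, and the regulator Irf7 was at 2.20 to 2.21 on all 8 arrays.

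Antigen presentation by MHC class II was higher in 5 of 10 genes (median 1.22) and in 1 without the arrays with pancreas transcripts (median 0.85). H2-Ab1 had 10.51, 11.09, 11.36 and 11.02 in Nx mice and 9.16 to 9.74 in sham mice (1.57, SE 0.27), with H2-Aa (1.38, SE 0.23), H2-Eb1 (1.86, SE 0.44) and the invariant chain Cd74 (1.36, SE 0.24). In the smaller fit H2-Ab1 had 1.35, H2-Aa 1.19, H2-Eb1 1.82 and Cd74 1.14 (adjusted p = 0.104, 0.113, 0.307 and 0.0598). Lymphocyte genes were low. Of 11 genes of T and NK cells, 1 was higher, the receptor Il7r, with 3.07, 5.62, 6.24 and 4.20 in Nx and 2.67 to 3.01 in sham kidneys; it did not pass without Nx mouse 3 or 7 or sham mouse 1 or 3. Cd3d was 2.77 to 3.21 in Nx and 2.58 to 2.77 in sham kidneys and Cd8a 2.40 to 2.43 in Nx and 2.30 to 2.41 in sham kidneys. Of 7 genes of B and plasma cells, 1 was higher, the immunoglobulin joining chain Jchain (2.10, SE 0.65, adjusted p = 0.0206), which did not pass without Nx mouse 3 or 7 or sham mouse 1. None of 5 neutrophil genes passed: S100a8 was 5.74, 3.87, 6.59 and 4.72 in Nx mice, against 3.68 to 4.76 in sham mice.

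Markers of injured tubule were higher in 11 of 20 genes, lower in 1 and not passed in 8 (median 0.83), and 6 were higher without the arrays with pancreas transcripts (median 0.60). Lcn2 had 8.00, 9.18, 9.48 and 6.69 in Nx mice, against 4.60, 4.33, 3.89 and 4.70 in sham mice (3.96, SE 0.44, adjusted p = 3.57e-08). Havcr1 had 5.19, 7.96, 8.05 and 6.10 in Nx mice, against 3.89, 5.37, 4.16 and 4.55 in sham mice (2.33, SE 0.56, adjusted p = 0.00249). The groups overlapped for Havcr1, where Nx mouse 2 lay below sham mouse 2, and not for Lcn2. Havcr1 did not pass with only the 8 arrays in the fit, and had 0.42 without the arrays with pancreas transcripts (adjusted p = 0.953), where Lcn2 had 3.89. Vcam1, an adhesion molecule of tubules that fail to recover, had 10.11, 10.42, 11.30 and 10.65 in Nx mice and 8.21 to 9.00 in sham mice (2.07, SE 0.22). The hyaluronan receptor Cd44 rose by 3.89 (SE 0.46) and clusterin (Clu) by 0.98 (SE 0.10). The keratin Krt20 stayed at 3.05 to 3.63 in Nx, against 3.03 to 3.08 in sham kidneys, and did not pass. The member that fell was the integrin chain Itgb6 (-1.28), picked out after its values were seen.

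Genes of cell division were higher in the remnant. Of 29 cell cycle and mitosis genes, 15 were higher, none lower and 14 not passed (median 0.89), and 3 were higher without the arrays with pancreas transcripts (median 0.61). Mki67 had 1.93 there, Cdk1 1.80 and Top2a 1.06 (adjusted p = 0.166, 0.1 and 0.457). Mki67, which encodes the proliferation antigen Ki-67, had 5.67, 7.55, 7.65 and 6.39 in Nx mice, against 2.27, 3.63, 3.84 and 3.28 in sham mice (3.56, SE 0.42, adjusted p = 1.34e-07). Cdk1, the kinase that starts mitosis, had 5.57, 6.74, 6.84 and 5.61 in Nx mice and 3.44 to 3.91 in sham mice. Top2a, which untangles chromosomes, had 5.33, 6.78, 6.77 and 5.88 in Nx mice and 3.70 to 4.46 in sham mice. All 3 kept the Nx and sham kidneys apart, and Nx mice 3 and 7 were the highest in each. Survivin (Birc5) rose by 2.63 (SE 0.41) and cyclin Ccnd2 by 0.89 (SE 0.14). Of 21 genes of DNA replication, 6 were higher and 15 not passed (median 0.44), among them the helicase subunits Mcm6 (2.81, SE 0.30), Mcm5 (1.66, SE 0.25), Mcm3 (1.39, SE 0.31) and Mcm2 (0.78, SE 0.28, adjusted p = 0.0483), and Uhrf1 (2.19, SE 0.33). Without the arrays with pancreas transcripts the median of the DNA replication list was 0.09.

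The promoters of these 3 genes are shown because cell cycle genes are known for a shared layout, the cell cycle homology region (CHR, searched as TTTGAA) near a CCAAT box (searched as CCAAT), the site of the factor NF-Y. Each run is the 160 bases before the start of the gene in RefSeq (GRCm38.p6), 5′ to 3′ on the strand of the gene, and capitals mark a match to either motif or to its reverse complement.
Mki67, chr7:135716380-135716539, minus strand: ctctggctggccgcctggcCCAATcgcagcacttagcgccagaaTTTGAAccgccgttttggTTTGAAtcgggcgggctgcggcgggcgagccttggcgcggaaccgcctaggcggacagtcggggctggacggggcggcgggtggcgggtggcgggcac
Cdk1, chr10:69352913-69353072, minus strand: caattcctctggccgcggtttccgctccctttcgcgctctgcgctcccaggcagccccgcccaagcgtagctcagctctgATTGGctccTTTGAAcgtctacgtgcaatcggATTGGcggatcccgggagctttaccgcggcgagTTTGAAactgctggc
Top2a, chr11:99024190-99024349, minus strand: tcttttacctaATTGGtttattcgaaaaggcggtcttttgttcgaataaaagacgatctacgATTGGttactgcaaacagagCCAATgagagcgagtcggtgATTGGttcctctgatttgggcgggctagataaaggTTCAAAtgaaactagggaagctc
In the 250 bases before the start, 7 of the 21 cell cycle genes with a RefSeq window held both motifs (33.3%), against 4.1% of the 10626 tested genes with a window. The CHR alone was in 33.3% of the cell cycle windows and 10.8% of all, and the CCAAT box in 71.4% and 35.9%, with each motif counted whether or not it overlapped the other. A match of letters is a description of the window, not a site of binding.

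Inhibitors of the cell cycle and targets of p53 changed less. Of 17, 5 were higher, 1 lower and 11 not passed, and 3 were higher without Nx mouse 7 and 2 without the arrays with pancreas transcripts. Cdkn1a (p21) had 5.84, 6.08, 6.56 and 5.81 in Nx mice and 4.88 to 5.49 in sham mice (0.79, SE 0.21, adjusted p = 0.00777), and Phlda3 rose by 1.04 (SE 0.25). The p53 ligase Mdm2 did not pass (0.08, SE 0.11). Of 18 genes of the EGF receptor family and other growth factors, 1 was higher, 7 lower and 10 not passed (median -0.31), and 4 were lower without Nx mouse 3 and 3 without the arrays with pancreas transcripts. Igf1, which macrophages and fibroblasts make, rose by 1.66 (SE 0.28). The receptors Erbb2 (-0.73, SE 0.18), Igf1r (-0.42, SE 0.10) and Met (-0.31, SE 0.07) fell. Egf, made by the distal nephron, was 13.34 to 13.75 in Nx and 13.79 to 13.99 in sham kidneys, without overlap, yet did not pass (-0.31, SE 0.17). Of 16 immediate early genes, 5 were higher, 1 lower and 10 not passed, and 2 were higher without Nx mouse 7 and 3 without Nx mouse 3 or sham mouse 3 or 4. Atf3 (1.91, SE 0.48) and Egr2 (1.77, SE 0.51) rose and Dusp1 fell (-0.93, SE 0.29), which was lost without Nx mouse 3 or sham mouse 3 or 4, while Fos (0.40, SE 0.77) and Jun (0.47, SE 0.25) did not pass.

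The proximal tubule, which reabsorbs most of the filtrate, had transport genes of both directions. Of 30 transport genes, 6 were lower, 4 higher and 20 not passed (median -0.20), and 10 were lower with only the 8 arrays in the fit. Without the arrays with pancreas transcripts 1 was higher and 6 lower (median -0.29). The list mean was 11.46 to 11.58 in Nx and 11.61 to 11.74 in sham kidneys, without overlap. Slc34a1, the main phosphate transporter, did not pass (-0.12, SE 0.16), nor did the glucose transporter Slc5a2 (-0.43, SE 0.18). Lrp2 (megalin), the receptor that takes up filtered protein, had 13.74, 13.70, 13.60 and 13.94 in Nx mice, against 14.15, 14.30, 14.33 and 14.21 in sham mice (-0.50, SE 0.11, adjusted p = 0.00135). The organic anion transporter Slc22a7 (-1.51, SE 0.48) and the amino acid transporters Slc6a20a (-0.91, SE 0.15) and Slc6a18 (-0.77, SE 0.13) fell. Other transporters rose: Slco4c1, an organic anion carrier, had 7.75, 7.98, 7.83 and 7.19 in Nx mice, against 5.85, 5.64, 5.54 and 6.74 in sham mice (1.75, SE 0.34, adjusted p = 0.000306), and the sulfate transporter Slc13a1 rose by 0.70 (SE 0.13).

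More metabolic genes of the tubule were lower than higher, where 7.35% of all genes were higher and 8.81% lower. Of 20 genes of proximal tubule metabolism, 5 were lower, 1 higher and 14 not passed (median -0.10), and 1 was lower without the arrays with pancreas transcripts (median -0.09). The gluconeogenic genes Pck1 (0.04, SE 0.10), Fbp1 (0.04, SE 0.07) and G6pc (0.28, SE 0.18) did not pass. Cyp27b1, which activates vitamin D, had 5.64, 7.05, 3.39 and 2.68 in Nx mice, against 2.32, 2.55, 2.54 and 3.11 in sham mice (2.06, SE 0.60, adjusted p = 0.0136). Nx mice 2 and 3 held the high values, Nx mouse 8 lay below sham mouse 4, and no rise in the list was called without Nx mouse 2 or without Nx mouse 3. Of 19 cytochrome P450 and conjugation genes, 3 were higher and 4 lower. Ugt2b38, a glucuronosyltransferase, had 11.82 to 12.63 in Nx and 9.98 to 11.27 in sham kidneys (1.89, SE 0.22), Cyp2d9 rose by 2.03 (SE 0.48), and Cyp2d12 had 8.32, 6.89, 6.82 and 7.05 in Nx mice and 8.53 to 9.29 in sham mice. The 4 lower became 1 without Nx mouse 3 and 2 without Nx mouse 7, and without the arrays with pancreas transcripts 1 was higher and 1 lower.

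Of 26 oxidative phosphorylation genes, 3 were lower, 1 higher and 22 not passed (median -0.06), and 1 was lower without Nx mouse 3 or 7 or without sham mouse 1, 3 or 4. Without the arrays with pancreas transcripts none passed, with a median of 0.02. The complex V chain Atp5b was 14.45 to 14.55 in Nx and 14.60 to 14.73 in sham kidneys (-0.17, SE 0.05). Of 23 genes of fatty acid oxidation and peroxisomes, 3 were lower and 20 not passed (median -0.11): the coactivator Ppargc1a (-0.51, SE 0.14), the dehydrogenase Acadm (-0.50, SE 0.11) and the transporter Slc27a2 (-0.32, SE 0.06). The count was 5 without sham mouse 4 and 1 without the arrays with pancreas transcripts (median -0.15). Ppara (-0.23, SE 0.16) and Cpt1a (0.02, SE 0.28) did not pass. Of 13 glycolysis genes, Hk2 (1.60, SE 0.49) and Pdk1 (0.60, SE 0.20) rose and Slc2a1 fell (-0.42, SE 0.11); no rise in the list was called without Nx mouse 3 or 7 or sham mouse 3, and 1 of 4 probe sets of Pdk1 did not share its rise.

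In the distal nephron and collecting duct more genes were lower than higher, where 8.81% of all genes were lower and 7.35% higher. Of 20 genes of the loop of Henle and distal tubule, 5 were lower, none higher and 15 not passed (median -0.31), and 3 were lower without Nx mouse 3, Nx mouse 7 or sham mouse 1 and none without the arrays with pancreas transcripts (median -0.11). Trpm6, the magnesium channel, had 6.56, 5.17, 5.92 and 7.08 in Nx mice, against 7.19 to 7.63 in sham mice (-1.22, SE 0.30, adjusted p = 0.00284). The kinase Wnk4, which regulates salt transport, fell by 0.48 (SE 0.11). Umod (-0.10, SE 0.08) and Slc12a3, the thiazide-sensitive cotransporter (-0.43, SE 0.19), did not pass. Of 17 principal cell genes, Aqp4 and Apela (-0.83, SE 0.28) fell and St6gal1 rose (0.60, SE 0.17), while Aqp2 did not pass (-0.38, SE 0.25). These counts were near the shares of all genes. The 2 falls became 1 without any single array except Nx mouse 2 or sham mouse 2, and no rise was called without Nx mouse 7. Without the arrays with pancreas transcripts none passed, and the list median was 0.01 (-0.25 with all arrays). Intercalated cell genes had the lowest median of the nephron lists, -0.42, with 7 of 16 lower and none higher. The exchanger Slc26a4 (pendrin) had 8.65, 8.35, 8.18 and 9.06 in Nx mice and 9.33 to 9.68 in sham mice (-0.92, SE 0.20), and Rhcg, the ammonia channel, 7.00, 6.47, 6.32 and 7.24 in Nx mice and 7.31 to 7.62 in sham mice. The 7 became 2 without Nx mouse 3, without Nx mouse 7 or without the arrays with pancreas transcripts (median -0.31), and 4 without sham mouse 1 or sham mouse 3.

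Of 13 podocyte genes, 4 were lower and 9 not passed (median -0.19). Nephrin (Nphs1), of the slit diaphragm, had 4.37, 3.51, 3.93 and 4.34 in Nx mice, against 4.75, 5.03, 5.10 and 4.93 in sham mice (-0.92, SE 0.26, adjusted p = 0.00981), and Ptpro fell by 0.77 (SE 0.16). Wt1 did not pass (-0.18, SE 0.24), and 1 was lower without Nx mouse 3 or without the arrays with pancreas transcripts (median -0.15). Of 16 endothelial genes, 2 were higher, Pecam1 (0.49, SE 0.16) and Cdh5 (0.44, SE 0.13), and 1 lower, Cldn5 (-0.47, SE 0.16); no rise was called without Nx mouse 8 and 1 without Nx mouse 2 or sham mouse 1, 2 or 4, and a fall was called without Nx mouse 8 (3 genes) or sham mouse 2 (2 genes) but without no other single array. Of 9 genes of the renin-angiotensin system, the receptor Agtr1a fell (-0.43, SE 0.13) and 8 did not pass, among them Ace (-0.61, SE 0.22). No fall was called without Nx mouse 3 or sham mouse 2 or 3. With the pancreas mean as a covariate 3 were lower, among them Ace (-0.68, adjusted p = 0.0392). Of 11 targets of Nrf2 only Gsr passed (0.47, SE 0.12), which did not pass without sham mouse 4, and of 16 genes of the unfolded protein and amino acid response only asparagine synthetase, Asns (2.10, SE 0.45), passed. Asns had 5.81, 8.26, 7.59 and 6.84 in Nx mice and 4.68 to 5.61 in sham mice, and the 3 high values lay on the arrays with pancreas transcripts. Asns had 0.99 without those arrays (adjusted p = 0.428) and 1.56 with the pancreas mean as a covariate (adjusted p = 0.00594).

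The changes at day 28 were set against those at day 2 and day 53 in the same strain, which have their own Nx and sham kidneys. Across genes, which are not independent replicates, the Nx effect at day 28 correlated with that at day 2 at 0.80 (Pearson) and 0.679 (Spearman) and with that at day 53 at 0.787 and 0.686. Of the 968 genes higher at day 28, 843 were also higher at day 2 (87.1% of them and 25.8% of the 3273 higher at day 2, which are 24.8% of genes), and 880 were also higher at day 53 (90.9%, and 25.8% of 3412, which are 25.9% of genes). Of the 1161 lower, 936 (80.6%) were also lower at day 2, where 30% of genes were, and 920 (79.2%) at day 53, where 27.8% were. Fewer genes passed at day 28 than at day 2 (54.8%) or day 53 (53.7%). Transcripts of other tissues also differed between the days. Pancreatic enzyme genes had median effects of 8.14 at day 2, 5.85 at day 28 and 4.32 at day 53. The 3 adrenal cortex genes had 0.50, 0.44 and 4.10. The part of other tissues in the comparisons between days was not tested.

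The effect at day 28 minus that at day 2 passed for 3324 genes (25.2%), 1680 upward and 1644 downward. With 1 common median per array the split was 2640 and 1173, and the median of all genes in this difference then lay at 0.12. Transport and respiration genes, which were lower at day 2, were closer to sham at day 28. Of 26 oxidative phosphorylation genes, 23 had a higher effect at day 28 than at day 2, with a median effect of -0.06 at day 28 and -0.41 at day 2. Of 30 proximal tubule transport genes it was 22, with medians of -0.20 at day 28 and -1.12 at day 2. Among the 8 highest differences of all genes, leaving out unnamed gene models, was the amino acid transporter subunit Slc7a7. Its effect was -0.34 at day 28 and -3.39 at day 2 (difference 3.05, SE 0.34, adjusted p = 2.11e-08). The phosphate transporter Slc34a3 (3.28, SE 0.52), the methyltransferase Inmt (3.41, SE 0.55), Fam151a (3.83, SE 0.39) and Cyp27b1 (4.00, SE 0.84) were others. The effect at day 28 was positive for Cyp27b1 (2.06, with the high values in Nx mice 2 and 3) and Inmt (1.01, not passed).

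Most interferon and macrophage genes were lower in effect at day 28 than at day 2. Of 18 interferon genes, 15 were lower, with a median effect of 0.22 at day 28 and 2.31 at day 2, as were 13 of 19 macrophage genes (2.24 and 3.72) and 13 of 20 matrix glycoproteins (1.47 and 3.59). Of alternatively activated macrophage genes 3 of 14 were lower (1.52 and 3.26), of chemokines 6 of 19 (1.02 and 2.78) and of MHC class II genes 1 of 10 (1.22 and 0.87). Slfn4, induced by interferon, had an Nx mean of 2.21 at day 28 and 8.62 at day 2, with sham means of 2.21 and 2.22 (difference -6.40, SE 0.44). Vcan, the provisional matrix proteoglycan versican, had a mean of 3.98 in Nx and 5.22 in sham kidneys at day 28, against 8.00 and 3.34 at day 2 (-5.90, SE 1.09). Fbn2 (-4.82, SE 0.71), Ms4a4c (-5.38, SE 0.60), the neutrophil gene S100a9 (-4.49, SE 1.40), Cthrc1 (-4.20, SE 0.71) and the heparanase gene Hpse (-4.16, SE 0.52) were also among the 8 lowest. Of 29 cell cycle genes 15 were lower in effect at day 28 and none higher (0.89 and 2.76), and of 21 DNA replication genes 12 were lower (0.44 and 1.52). Mki67 had effects of 3.56 at day 28 and 3.35 at day 2.

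The effect at day 28 minus that at day 53, which uses the same day 28 arrays, passed for 3462 genes (26.3%), 1663 upward and 1799 downward, or 2327 and 1223 with 1 common median per array. Injured-tubule genes were lower in effect at day 28 in 18 of 20 (median effect 0.83 at day 28 and 2.35 at day 53). Krt20 had a mean of 3.27 in Nx and 3.05 in sham kidneys at day 28, against 8.28 and 3.03 at day 53 (difference -5.03, SE 0.30, adjusted p = 2.24e-15). Lcn2 had a mean of 8.34 in Nx and 4.38 in sham kidneys at day 28, against 12.50 and 4.24 at day 53 (-4.30, SE 0.62), and Havcr1 6.83 and 4.49, against 10.77 and 4.30 (-4.15, SE 0.79). MHC class II genes were lower in effect at day 28 in 9 of 10 (1.22 at day 28 and 2.98 at day 53) and acute phase genes in 12 of 15 (0.93 and 3.62).

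Nephron genes were closer to sham at day 28 than at day 53. The effect was higher in 24 of 26 oxidative phosphorylation genes, with a median of -0.06 at day 28 and -0.49 at day 53. The same held for 17 of 20 genes of the loop and distal tubule (-0.31 and -1.53), 12 of 16 intercalated cell genes (-0.42 and -1.62) and 18 of 30 proximal transport genes (-0.20 and -0.95). Pvalb (parvalbumin) of the distal convoluted tubule had a mean of 9.55 in Nx and 10.00 in sham kidneys at day 28, against 4.67 and 10.16 at day 53 (difference 5.04, SE 0.72, adjusted p = 1.98e-06). Slc22a7 (4.46, SE 0.68), the betaine methyltransferase Bhmt (3.93, SE 0.78), Wfdc15b (3.35, SE 0.33) and Cyp2d12 (4.89, SE 0.69) were others among the 8 highest. Egf had an effect of -0.31 at day 28 and -3.41 at day 53.

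**Figure D4:**
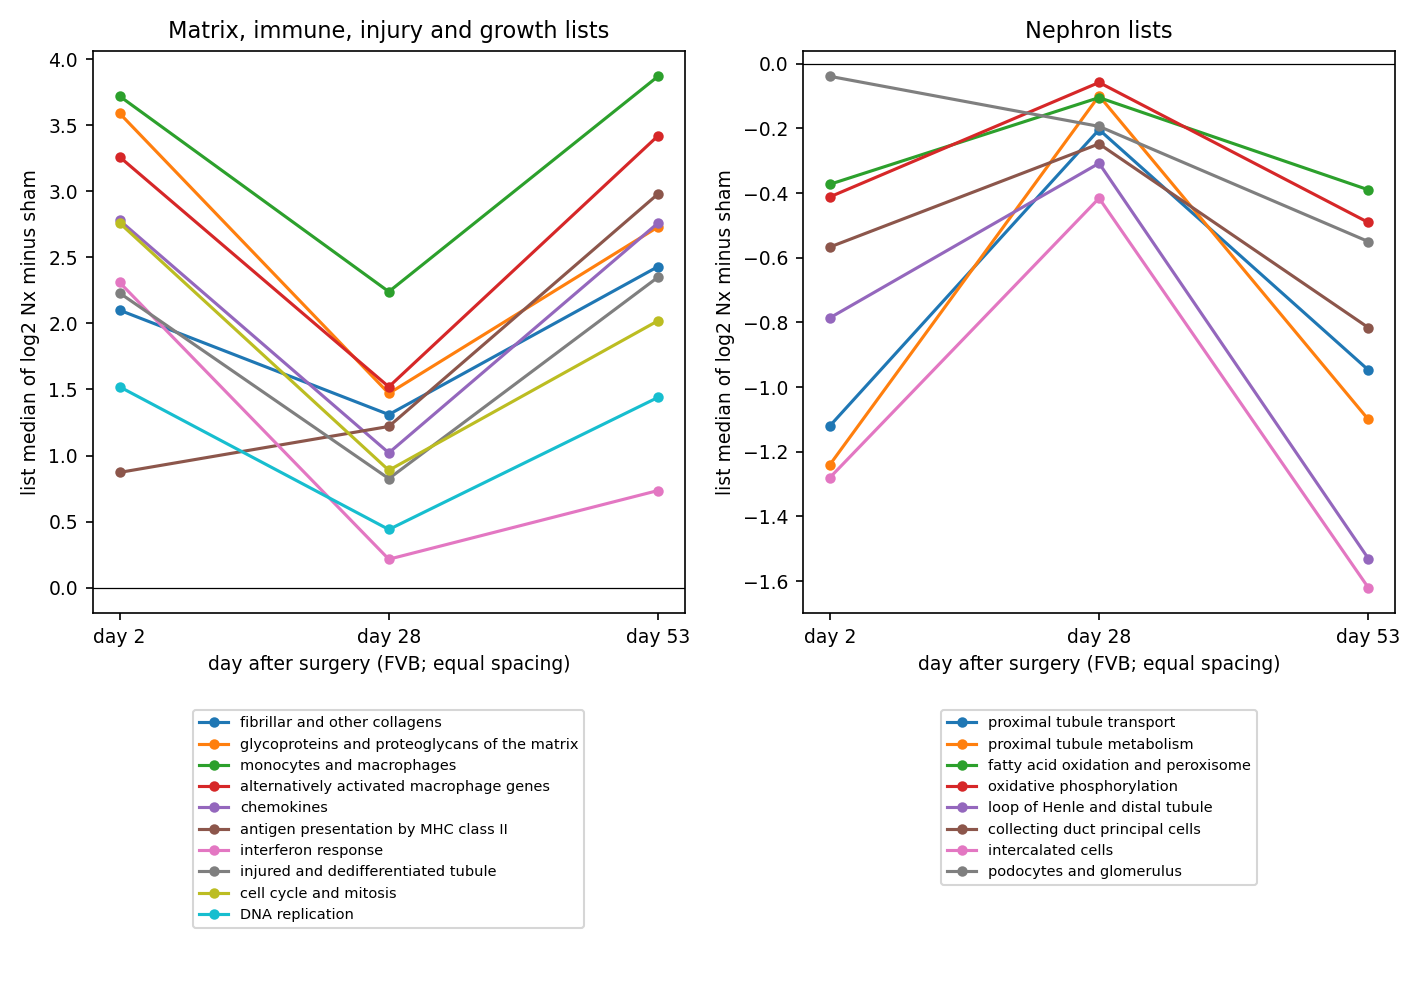
Median log2 difference, Nx minus sham (vertical axis), over the members of each list in FVB kidneys at day 2, day 28 and day 53 (horizontal axis, equal spacing), with matrix, immune, injury and growth lists on the left and nephron lists on the right. Of the lists drawn, all but MHC class II on the left are lowest at day 28 and all but the podocyte list on the right are nearest 0 at day 28.

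The Nx effect at day 28 was then compared between FVB and B6, which were operated on and sampled alike. It passed for 17 genes (0.129%), 8 (0.0607%) higher and 9 (0.0683%) lower in FVB, and across genes the effects of the strains correlated at 0.858 (Pearson) and 0.736 (Spearman). Of the 968 genes higher in FVB, 741 (76.5%) were also higher in B6 (57.1% of 1297, which are 9.85% of genes), and of the 1161 lower, 613 (52.8%) were lower in B6, where 9.14% of genes were. List medians were 1.31 in FVB and 1.43 in B6 for collagens, 2.24 and 2.31 for macrophages, and 0.89 and 1.20 for the cell cycle. They lay further apart for alternatively activated macrophage genes (1.52 in FVB and 2.40 in B6), matrix proteases (0.55 and 1.15), intercalated cells (-0.42 and -0.82) and fat genes (0.83 and 2.32). No test of these differences between medians was made. The list mean of alternatively activated macrophage genes ran from 4.88 to 8.55 in B6 Nx kidneys, with a group mean of 6.11. In FVB Nx kidneys it ran from 5.37 to 6.02. That of matrix proteases ran from 7.35 to 9.17 in B6 Nx kidneys, with a group mean of 7.87, and from 7.09 to 7.92 in FVB Nx kidneys. The part of single B6 kidneys in these gaps was not tested. Pancreatic enzyme genes had median effects of 5.85 in FVB and 6.58 in B6, and their part in the correlation was not tested. No member of the macrophage, collagen crosslinking, injured tubule or nephron segment lists differed. The count of 17 was 3 with only the arrays of this comparison in the fit, 30 with array weights and 11 without Nx mouse 7. It was 1268 (270 higher and 998 lower, 7 of the 17 among them) without the arrays with pancreas transcripts.

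Among genes that differed, 2 belong to lists of growth and matrix. Mcm6 had a mean of 6.96 in Nx and 4.15 in sham FVB kidneys, against 8.58 in Nx and 8.33 in sham B6 kidneys (difference of effects 2.56, SE 0.42, adjusted p = 0.00142). Col5a2 had 9.81 in Nx and 5.92 in sham FVB kidneys, against 10.78 and 9.35 in B6 kidneys (2.46, SE 0.52, adjusted p = 0.0236). In both, sham FVB kidneys had the lowest mean of the 4 groups. The same was true of Ugt2b38, with 12.26 in Nx and 10.37 in sham FVB kidneys, against 12.60 and 12.56 in B6 kidneys (1.84, SE 0.31), and of Akr1c21, with 12.54 and 10.92 in FVB, against 14.44 and 14.31 in B6 kidneys (1.49, SE 0.25).

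For 3 of the genes the B6 kidneys gave no measurable level. Ifi202b, an interferon-induced DNA sensor, rose in FVB kidneys (2.72, SE 0.39; difference between the strains 2.72, SE 0.55, adjusted p = 0.0172), with 5.98, 6.84, 7.43 and 6.79 in Nx mice and 2.65, 4.53, 3.87 and 5.08 in sham mice, and had means of 2.20 in both Nx and sham B6 kidneys. Serpina6 had means of 2.20 in Nx and 2.21 in sham B6 kidneys, and Mbl2 of 2.20 in both. A fall from the lowest value cannot be seen, so for Serpina6 and Mbl2 the effect in B6 was not measurable. Serpina1b, an antitrypsin, had 8.64 in Nx and 9.93 in sham FVB kidneys, against 5.77 and 3.02 in B6 kidneys (-4.04, SE 0.75, adjusted p = 0.00687). Rnase4 had 11.95 and 12.15 in FVB, against 10.06 and 8.34 in B6 kidneys (-1.92, SE 0.39), and the sulfate transporter Slc13a4 6.82 and 7.76 in FVB, against 6.01 and 5.19 in B6 kidneys (-1.76, SE 0.37).

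**Figure D5:**
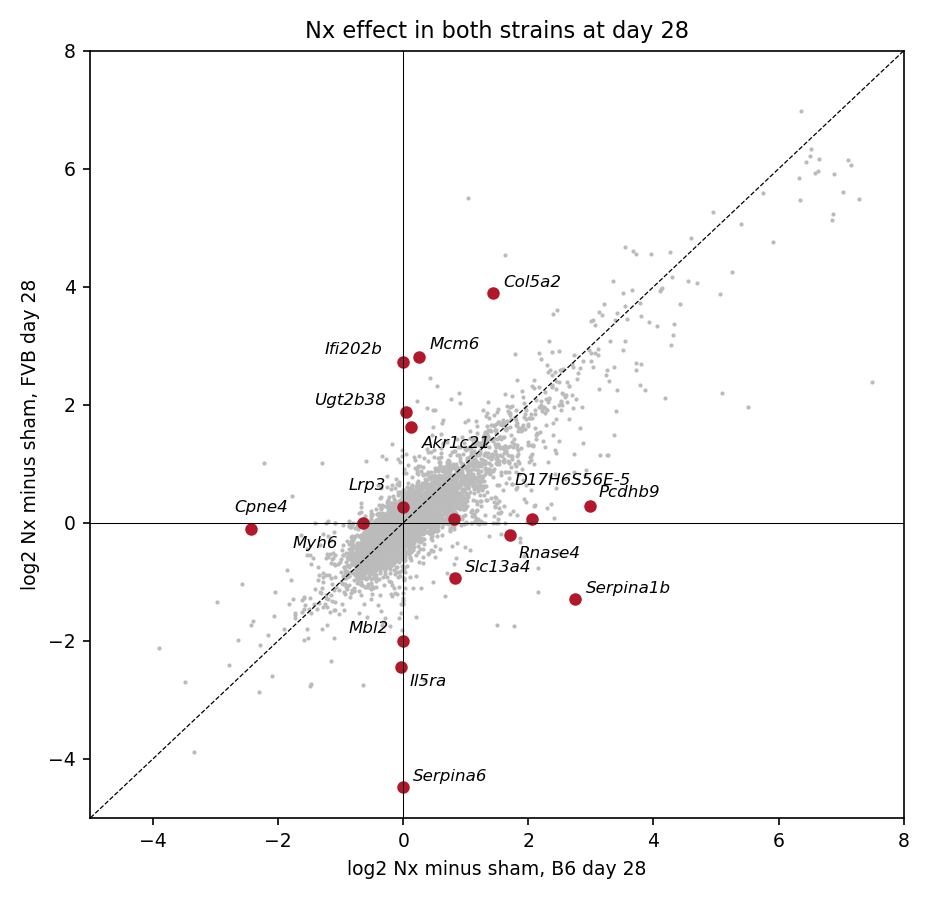
Log2 difference, Nx minus sham, at day 28 in FVB (vertical axis) against B6 (horizontal axis) for 13174 genes (grey points), with the 17 genes whose effect differed between the strains in red, 16 of them named, and the line of equal effects dashed. Serpina6, Il5ra and Mbl2 lie near 0 in B6 and below -1.9 in FVB.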

How the data were processed

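RNA from 48 whole kidneys was measured on Affymetrix arrays, 1 mouse per array. The deposited values are log2 probe set values made by the authors. MAS5 is named in the submitters' processing notes, and its role and the background steps are not given in the sources used here. The table holds 45101 probe sets, and 32.057% of its values share the lowest one, 2.1979. A probe set was kept if over the 40th percentile (2.277) on at least 4 arrays. Of 29213 kept, 24197 had 1 gene symbol in the platform annotation, and the one with the highest mean stood for its gene, giving 13174 genes.

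Values were used as deposited. limma 3.58.1 in R 4.3.3 (lmFit, eBayes with an intensity trend) fitted 12 group means over all 48 arrays with 36 residual degrees of freedom, and p-values were adjusted by Benjamini-Hochberg over all genes for each of 4 contrasts. The separate Nx effects at FVB day 2, FVB day 53 and B6 day 28 were tested in the same fit and adjusted in the same way. These p-values measure the spread between the animals sampled. The number of arrays limits the precision. The code was tested on simulated data. Figures were drawn with matplotlib 3.10.9.

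Named genes were the 15 highest and 15 lowest past the threshold without overlap of the groups, the first 3 tested members of each list with up to 4 more of smallest p, and the 8 highest and 8 lowest of each difference, leaving out unnamed and provisional gene models. Members and the 48 gene lists were chosen with earlier results of these data known. FVB day 28 groups share mouse numbers 2 and 3 only, whose deviations correlated at 0.378 and -0.251, so the numbers were not taken to pair the animals. The 10 other settings tried covered normalization, filters, the choice of probe set, the arrays in the fit, array weights, a replicate block, a pancreas covariate and leaving out each array. 1 was added after the data were seen, the fit without arrays with pancreas transcripts.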

Additional observations from a re-analysis of the deposited data

Results flagged for a closer look

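In groups of 4 arrays, a value was picked out when its gap to the nearest of the others exceeded Dixon's 95% critical value as a share of the range of the group. This held for 43 of 410 groups checked. The critical value picks out about 1 in 20 groups of independent, normally distributed values. Several groups here had values at the floor, and all of them shared the same arrays. The count can therefore not be set against that rate. For single genes, sham mouse 4 was the array that stood apart 16 times and each other array 2 to 5 times, with log2 values given in brackets. Nx mouse 2 stood apart as the highest of its group in Cd8a (2.43), Cyp2d12 (8.32) and Umod (15.36). Nx mouse 3 stood apart as the highest of its group in Cthrc1 (2.93) and Hpse (3.05). Nx mouse 3 stood apart as the lowest of its group in Ly6f (2.65). Nx mouse 7 stood apart as the highest of its group in Chil3 (2.51), Ms4a4c (4.30), Serpina6 (2.50) and Tgfb1 (2.78). Nx mouse 8 stood apart as the highest of its group in Arg1 (2.20) and Mbl2 (2.20), and as the lowest in Actb (13.87). Sham mouse 1 stood apart as the highest of its group in Col4a4 (12.01), Gpnmb (3.18) and Ms4a4c (2.35). Sham mouse 1 stood apart as the lowest of its group in Mmp7 (2.20). Sham mouse 2 stood apart as the highest of its group in Ccn3 (3.69) and Ugt2b38 (11.27). Sham mouse 2 stood apart as the lowest of its group in Apela (10.34), Cd8a (2.30) and Slfn4 (2.20). Sham mouse 3 stood apart as the lowest of its group in Cyp2d9 (4.81) and Tgfb1 (2.20). Sham mouse 4 stood apart as the highest of its group in Alb (13.05), Arg1 (4.45), Ccl12 (5.10), Ccl9 (5.35), Dnase1 (14.80), Fbn2 (2.57), Fgb (9.12), Itgbl1 (2.96), Ltbp2 (4.48), Lyz2 (9.73), Retnla (3.97), Serpinf1 (5.66) and Timp1 (2.23). Sham mouse 4 stood apart as the lowest of its group in Irf7 (2.20), Lpl (13.28) and Trem2 (2.20). Values at or within 0.01 of 2.20 lie at the lowest value of the table and carry no order.

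Among the lists of other tissues, the mean of pancreatic enzymes was lowest in Nx mouse 2 (3.80, against 13.27 to 14.34 in the other Nx mice), that of liver genes highest in sham mouse 4 (10.06, against 4.58 to 4.73) and that of skeletal muscle genes highest in Nx mouse 3 (6.32, against 3.35 to 3.56).

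Differences between effects were tested as contrasts of the limma fit. The Nx effect differed between day 28 and day 2 for 3324 genes, between day 28 and day 53 for 3462 and between FVB and B6 for 17. For day 28 minus day 2, the log2 differences of effects were those of Cyp27b1 (4.00), Fam151a (3.83), Cyp2d12 (3.64), Inmt (3.41), Slc34a3 (3.28), Slc7a7 (3.05), Slfn4 (-6.40), Vcan (-5.90), Ms4a4c (-5.38), Chil3 (-5.33), Fbn2 (-4.82), S100a9 (-4.49), Cthrc1 (-4.20) and Hpse (-4.16). For day 28 minus day 53, the log2 differences of effects were those of Pvalb (5.04), Cyp2d12 (4.89), Slc22a7 (4.46), Bhmt (3.93), Hpd (3.42), Slc34a3 (3.37), Wfdc15b (3.35), Krt20 (-5.03), Lcn2 (-4.30), Havcr1 (-4.15) and Ankrd1 (-4.12). For FVB minus B6 at day 28, the log2 differences of effects were those of Ifi202b (2.72), Mcm6 (2.56), Col5a2 (2.46), Ugt2b38 (1.84), Akr1c21 (1.49), Serpina6 (-4.47), Serpina1b (-4.04), Il5ra (-2.41), Mbl2 (-2.0), Rnase4 (-1.92) and Slc13a4 (-1.76).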

How the results depend on the processing

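The counts of genes past the threshold for Nx against sham, day 28 minus day 2 and day 28 minus day 53 stayed within 1.5 times of 2129, 3324 and 3462 under the 10 other settings tried. Leaving out each array in turn gave 1538 (without Nx mouse 7) to 2059, 2832 to 3441, 3064 to 3585 and, for FVB minus B6, 11 (without Nx mouse 7) to 18, against 17. That last count was 3 with only the arrays compared and 30 with array weights. Without arrays with pancreas transcripts, which left 1 Nx and 2 sham kidneys of FVB day 28, 751 genes passed for Nx against sham (487 shared) and 1268 for FVB minus B6 (7 shared). The cause of these changes in count was not tested. In the fit without those arrays the difference was 3.24 for Postn (3.50 with all arrays), 4.22 for F13a1 (4.17), -1.08 for Hpd (-2.40) and 1.93 for Mki67 (3.56). Some named genes that did not pass with all arrays changed sign in it. Among them were Alb (-1.40 with all arrays and 0.28 in that fit), Fos (0.40 and -0.59) and Umod (-0.10 and 0.12). With 1 median per array the share of calls that were higher was 33.8% for Nx against sham (45.5% as deposited), 69.2% for day 28 minus day 2 (50.5%) and 65.5% for day 28 minus day 53 (1663 of 3462 as deposited). With the probe set of highest variance Pdk1 had -0.037, opposite in sign.

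Leaving out 1 array ended the call of 18 named genes without Nx mouse 3 (among them Nphs1, Depp1, Slc22a7 and Cyp2d12), 18 without Nx mouse 7 (among them Ccl2, Cdkn1a, Tnc, Oasl2 and Ppargc1a) and 5 to 12 without any other single array. Gbp2 was lost without any 1 of the 8 arrays, and Mcm2 and Apela without most of them. With only the 8 arrays in the fit 26 were lost, among them Havcr1, Trpm6, Ankrd1 and Mbl2. With the replicate number as a block (block correlation 0.126), the counts were 2325, 3723, 3588 and 25, and the pairing ended no call of a named gene. Values at the floor limit what falls can be measured.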

Other observations

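Of 8 mast cell genes on the array only 3 were kept by the filter. Of these 2 were lower, Hdc (-3.89, SE 0.64) and Kit (-0.38, SE 0.13), and Tpsb2 did not pass. Kit is also expressed by other kidney cells, and the number of mast cells was not measured. Of 10 androgen-dependent kidney genes, Cyp2d9 and Gusb (0.69, SE 0.19) were higher and 8 not passed. Of 13 genes of cholesterol synthesis and uptake, Fdft1 was lower (-0.40, SE 0.14). Slc4a1 (-0.74, SE 0.25) and Klf1 (-0.85, SE 0.27), which red cell precursors express, were lower. Slc4a1 and Kit also belong to the intercalated cell list, where their falls are counted as well. The calls of these lists other than Cyp2d9 and Hdc each rested on adjusted p-values between 0.0107 and 0.0374, and the genes were picked out after their values were seen.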
